A study of Mus musculus with 8 samples.

Results

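The metabotropic glutamate receptors described here are the products of 6 genes, Grm2, Grm3, Grm4, Grm5, Grm7 and Grm8, which were taken by symbol from a hippocampal RNA-seq table of 25834 genes. All 6 were among the 16251 genes with enough reads to be tested. RNA was sequenced from the hippocampus of male mice, 4 control and 4 SAP97-cKO, with 1 library for each mouse. SAP97-cKO mice are Nestin-cre+/-; SAP97fl/fl, so that floxed Dlg1, the gene for the scaffold protein SAP97, is cut by a Cre that the Nestin promoter drives in neural progenitors and their neurons and glia. For the littermate controls the methods list Nestin-cre+/-, SAP97fl/fl and wild-type animals, but the sources used here do not tie a genotype to any one control library. Tissue for western blots was taken at an age of 2 months, and the age is not stated again for the sequenced mice, in each of which SAP97 was also checked by western blot. The question was whether loss of SAP97 is accompanied by a change in the transcripts of these receptors.

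Metabotropic glutamate receptors are G protein-coupled receptors that sense glutamate through a large extracellular domain and act more slowly than the glutamate-gated ion channels. Grm5 belongs to group I, which couples to Gq, activates phospholipase C and sits mainly around the postsynaptic density, where Homer and Shank proteins hold it. Grm2 and Grm3 form group II, and Grm4, Grm7 and Grm8 belong to group III. Both of these groups couple to Gi/o proteins, lower cyclic AMP and, on axons and terminals, reduce transmitter release. In the hippocampus Grm2 is known from granule cells and their mossy fibres, Grm3 also from astrocytes, and Grm7 from the active zones of many terminals.

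The coding ends of the receptors are shown because the tail they encode is where scaffold proteins with PDZ domains bind several of these receptors, and because they show how well the members can be told apart by sequence. Each line gives the last 45 coding bases of the longest GENCODE coding sequence on GRCm38, 5′ to 3′ on the coding strand, with the last 4 codons, stop codon included, in capitals.
Grm2: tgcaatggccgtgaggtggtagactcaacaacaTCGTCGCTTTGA
Grm3: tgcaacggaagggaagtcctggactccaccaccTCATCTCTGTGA
Grm5: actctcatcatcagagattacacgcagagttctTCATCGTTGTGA
Grm4: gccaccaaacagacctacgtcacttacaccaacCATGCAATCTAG
Grm7: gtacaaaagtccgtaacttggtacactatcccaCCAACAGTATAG
Grm8: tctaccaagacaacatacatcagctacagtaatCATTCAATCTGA

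Within group II, the ends of Grm2 and Grm3 were identical at 31 of 45 bases. Within group III, the printed ends of Grm4 and Grm8 were identical at 29 bases, whereas the printed end of Grm7 matched each of them at 12. Over the whole aligned coding sequences, identity was 68.8% between Grm2 and Grm3 and 69.7% to 70.4% among Grm4, Grm7 and Grm8, and between groups it was 60.8% to 64.9%. None of the 15 pairs shared a run of 50 bases in their coding sequences. Grm4, Grm7 and Grm8 each have 2 annotated coding ends, of which only the printed one was compared. The match of Grm7 at 12 bases therefore does not describe its other end. Counts per gene do not separate the 2 ends.

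The genes lie on 5 chromosomes of GRCm38. Grm2 (ENSMUSG00000023192) is on the minus strand at chr9:106643095-106656082 and Grm3 (ENSMUSG00000003974) on the minus strand at chr5:9485541-9725170. Grm5 (ENSMUSG00000049583) spans chr7:87584168-88134907 on the plus strand. In group III, Grm4 (ENSMUSG00000063239) is at chr17:27422387-27521403 on the minus strand, Grm7 (ENSMUSG00000056755) at chr6:110645581-111567230 on the plus strand and Grm8 (ENSMUSG00000024211) at chr6:27275119-28135178 on the minus strand. The printed coding ends each lie in 1 exon, at chr9:106645018-106645062 for Grm2, chr5:9485768-9485812 for Grm3 and chr17:27426784-27426828 for Grm4. Those of Grm5, Grm7 and Grm8 are at chr7:88130825-88130869, chr6:111501536-111501580 and chr6:27275645-27275689. Exons made up 0.639% of the 921650 bp of Grm7 and 37.7% of the 12988 bp of Grm2. An antisense gene, Gm20387, shares 130 exonic bp with Grm7. Its 413 counts over all libraries equal 2.63% of those of Grm7, and since the use of strand in counting was not given, reads of this stretch cannot be assigned with certainty. The corresponding antisense gene of Grm2, Gm28111, held 8 counts.

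Each library held 37388177 to 37426572 counts, so depth was nearly equal. Values are given as CPM, reads of a gene relative to the library total, after TMM scaling, which corrects library totals for differences in composition. Dlg1 fell to 55.2% of the control level, from 116 ± 9.0 CPM (SD, n = 4) to 64.0 ± 12.6 CPM (n = 4). The difference was -0.86 on the log2 scale (standard error 0.12, adjusted p = 0.143 in edgeR's quasi-likelihood test). Counts are per gene and take in all exons of Dlg1, so this percentage does not measure how completely the floxed part was cut. The paper reports a far stronger loss of reads for the exon it used to check the knockout. It also reports less of the protein in the hippocampus. Of all genes tested, 48 passed the study's threshold, a false discovery rate (FDR) under 0.25, and 46 of them were lower in SAP97-cKO hippocampi. Hippocampal markers were present in every library, with summed CPM of 311.5 to 553.4 for 6 dentate granule cell genes, 534.2 to 831.6 for 6 CA1 genes and 295.4 to 426.1 for 6 CA3 genes. Markers of surrounding tissue varied more. The sum of 10 choroid plexus genes ran from 174.5 to 6855 CPM in controls and from 99.8 to 2358 CPM in SAP97-cKO libraries, and 7 of 20 meningeal fibroblast genes passed the threshold, all lower in SAP97-cKO hippocampi (406.7 to 721.9 against 239.4 to 383.7 CPM in sum).

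None of the 6 receptors passed the FDR of 0.25 in edgeR, a threshold passed by 0.295% of all genes tested. Grm5 and Grm7 had an unadjusted p under 0.05, both with higher means in SAP97-cKO hippocampi, which makes 2 of 6 receptors where 4.73% of all genes were higher at that p. In the lower direction the count was 0 of 6, against 7.01% of all genes. limma-voom also called 0 receptors, and DESeq2, which called 1033 of all genes, called 2, Grm5 and Grm7. The control and SAP97-cKO ranges overlapped for all 6 receptors, while 2.78% of all genes were higher and 3.47% lower without overlap. The median log2 fold change was -0.029 over the receptors and -0.012 over all genes tested, with 3 receptors above 0 and 3 below. In whole tissue, fewer cells of a type and less RNA per cell cannot be told apart.

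**Figure D1:**
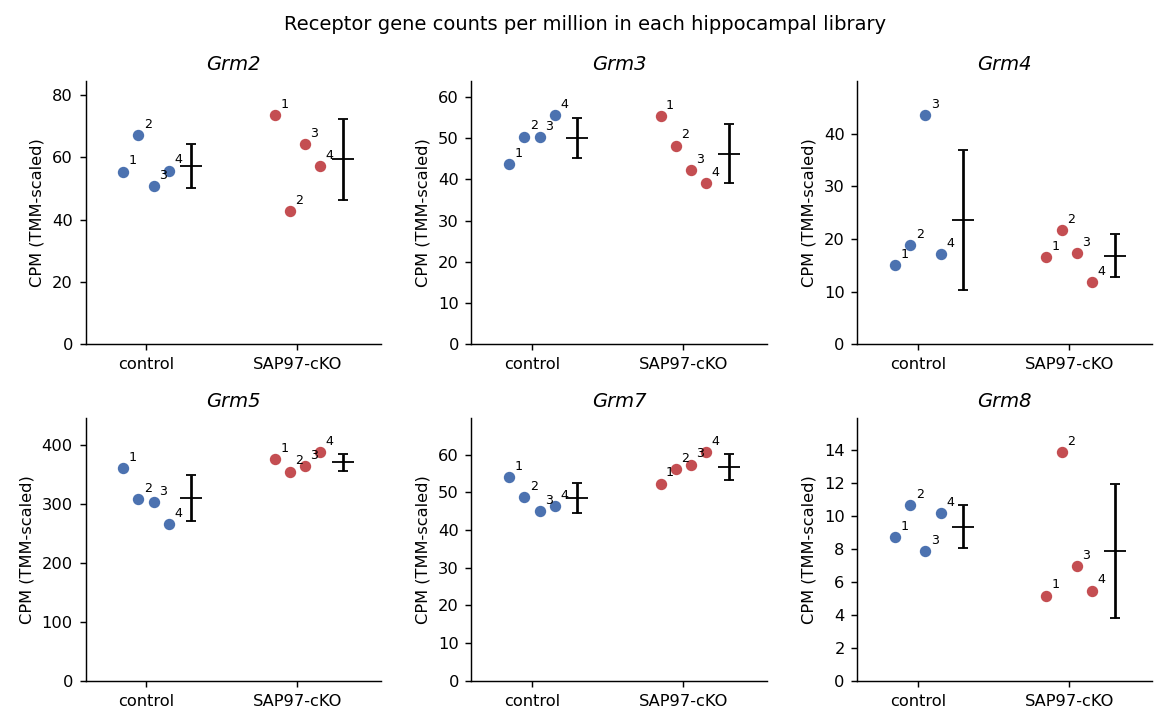
TMM-scaled CPM of each receptor gene in each library (y axis, from 0), with control libraries in blue, SAP97-cKO libraries in red, replicate numbers beside the points, and black bars for mean and SD (n = 4). The Grm5 and Grm7 points of SAP97-cKO mice lie above those of all controls but control 1, and single libraries stand apart for Grm4 (control 3, 43.5 CPM) and Grm8 (SAP97-cKO 2, 13.9 CPM).

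Grm5, the group I receptor, was the most abundant member. Control libraries 1 to 4 held 360.0, 307.6, 303.0 and 265.5 CPM, and SAP97-cKO libraries 1 to 4 held 375.2, 354.2, 364.2 and 387.4 CPM. Control 1 reached into the SAP97-cKO range and lay above SAP97-cKO 2, so that 15 of the 16 pairs of a SAP97-cKO and a control mouse had the higher value in the SAP97-cKO mouse. The means were 309 ± 38.9 and 370.3 ± 14.3 CPM (SD, n = 4 each). The log2 fold change was 0.26 (standard error 0.090, 95% interval 0.060 to 0.46, unadjusted p = 0.0158, adjusted p = 0.364 in edgeR). The exact two-sided permutation test gave p = 0.0571, where 4 mice against 4 allow no p below 0.0286. DESeq2 gave an adjusted p of 0.163, which passes the threshold, but DESeq2 put 1033 of 16251 genes past it. edgeR did so for Grm5 without control 1 (log2 fold change 0.34, adjusted p = 0.179), a fit in which 1675 of 16469 genes passed. Without control 4 the edgeR value was 0.20 (adjusted p = 0.35), and without SAP97-cKO 4 it was 0.24 (adjusted p = 0.695). The spread was wider among controls (coefficient of variation 12.6%) than among SAP97-cKO mice (3.87%), and counting alone would give 0.888%.

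The Grm5 levels moved opposite to myelin genes at both extremes. Control 4, with the lowest Grm5, had the highest sum of 8 oligodendrocyte markers (9374 CPM), and SAP97-cKO 4, with the highest Grm5, had the lowest (4540 CPM). The oligodendrocyte sums ran from 5863 to 9374 CPM in controls and from 4540 to 8221 CPM in SAP97-cKO libraries. All 8 of these markers had negative fold changes, and 0 passed the FDR. At an unadjusted p under 0.05, 6 of the 8 were lower, beside 7.01% of all genes tested. SAP97-cKO 1 did not follow this order, with 8221 CPM of the markers and 375.2 CPM of Grm5. The part of these cells in the Grm5 difference was not tested.

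Among the group II receptors, Grm2, the granule cell autoreceptor, had 55.4, 67.2, 50.7 and 55.8 CPM in control libraries 1 to 4. SAP97-cKO libraries 1 to 4 held 73.5, 42.7, 64.3 and 57.1 CPM. The highest and the lowest library were both SAP97-cKO, and the control range lay inside that of the SAP97-cKO mice. Means were 57.3 ± 7.01 and 59.4 ± 13.0 CPM (SD, n = 4). The log2 fold change of 0.053 (standard error 0.15, 95% interval -0.28 to 0.39, adjusted p = 0.903 in edgeR; exact permutation p = 0.771) does not separate the genotypes, and the interval covers folds from 0.823 to 1.31. Without SAP97-cKO 1 the sign turned (-0.059).

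The 2 extreme Grm2 libraries were also the extremes of the dentate granule cell list. SAP97-cKO 1 had the highest sum of its 6 markers (553.4 CPM, with 5 of the 6 at their highest) and SAP97-cKO 2 the lowest (311.5 CPM, with 4 of the 6 at their lowest). The other libraries held 414.7 to 542.2 CPM and did not follow the Grm2 order closely. Control 2, second in Grm2, had 459.4 CPM. Whether the granule cell share of each dissection sets the Grm2 level was not tested.

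Grm3, which neurons and astrocytes share, measured 43.7, 50.4, 50.2 and 55.6 CPM in control libraries 1 to 4 and 55.4, 48.2, 42.4 and 39.2 CPM in SAP97-cKO libraries 1 to 4. The ranges overlapped over most of their width, and the 2 lowest libraries were SAP97-cKO 3 and 4. Means were 49.98 ± 4.87 and 46.3 ± 7.13 CPM (SD, n = 4). The log2 fold change was -0.11 (standard error 0.11, 95% interval -0.36 to 0.14, adjusted p = 0.689 in edgeR; exact permutation p = 0.40). Single libraries moved this value, to -0.035 without SAP97-cKO 4, -0.055 without control 4, -0.065 without SAP97-cKO 3, -0.17 without control 1 and -0.20 without SAP97-cKO 1. The sum of 10 astrocyte markers was 6109 to 7227 CPM in controls and 6362 to 7825 CPM in SAP97-cKO mice. It was lowest in control 1 and highest in SAP97-cKO 1, the lowest control and the highest SAP97-cKO library in Grm3. SAP97-cKO 3 and 4, the lowest of all in Grm3, did not follow this order, with sums of 6648 and 6701 CPM. The part of astrocytes in the Grm3 values was not tested.

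Of the group III receptors, Grm7, a receptor of presynaptic active zones, had the lowest biological coefficient of variation of the 6 (0.0879 in edgeR). Control libraries 1 to 4 held 54.0, 48.7, 45.04 and 46.3 CPM, and SAP97-cKO libraries 1 to 4 held 52.3, 56.1, 57.3 and 60.7 CPM. Only control 1 and SAP97-cKO 1 crossed, so that SAP97-cKO was higher in 15 of 16 pairs, as for Grm5. Means were 48.5 ± 3.98 and 56.6 ± 3.46 CPM (SD, n = 4). On the log2 scale SAP97-cKO exceeded control by 0.22 (standard error 0.076, 95% interval 0.054 to 0.39, unadjusted p = 0.0145, adjusted p = 0.353 in edgeR). The exact permutation p was 0.0571. DESeq2 put Grm7 past the threshold (adjusted p = 0.186), together with 1033 of 16251 genes in all. edgeR did so without control 1 (log2 fold change 0.28, adjusted p = 0.184) and without SAP97-cKO 1 (0.27, adjusted p = 0.234). Those fits called 1675 and 711 of all genes. Without SAP97-cKO 4 the edgeR value was 0.19 (adjusted p = 0.703).

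Grm4, a presynaptic receptor best known from cerebellar granule cells, had 15.1, 18.8, 43.5 and 17.1 CPM in control libraries 1 to 4. SAP97-cKO libraries 1 to 4 held 16.5, 21.7, 17.2 and 11.8 CPM. Control 3 stood apart from every other library, and the remaining controls lay within the SAP97-cKO range. The means of 23.6 ± 13.3 and 16.8 ± 4.05 CPM (SD, n = 4) correspond to -0.49 on the log2 scale (standard error 0.32, 95% interval -1.20 to 0.22, adjusted p = 0.545 in edgeR; exact permutation p = 0.457). Without control 3 it was -0.0047 (adjusted p = 0.994). The same library had the highest sum of 8 thalamus markers, 269 CPM against 109.7 to 186.6 CPM elsewhere, with 6 of the 8 at their highest there, and SAP97-cKO 4 was lowest in both Grm4 and the thalamus sum. The part of neighbouring thalamic tissue in these values was not tested.

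Grm8, the least abundant member, had 8.70, 10.7, 7.87 and 10.2 CPM in control libraries 1 to 4 and 5.17, 13.9, 6.94 and 5.47 CPM in SAP97-cKO libraries 1 to 4. The other three SAP97-cKO libraries lay below all controls, whereas SAP97-cKO 2 lay above them all. Means were 9.35 ± 1.29 and 7.86 ± 4.08 CPM (SD, n = 4), and the genotypes differed by -0.25 on the log2 scale (standard error 0.28, 95% interval -0.88 to 0.38, adjusted p = 0.725 in edgeR; exact permutation p = 0.514). Without SAP97-cKO 2 the log2 fold change was -0.67 (unadjusted p = 0.00157, adjusted p = 0.348), still short of the threshold, whereas it was -0.088 without SAP97-cKO 1 and -0.11 without SAP97-cKO 4. SAP97-cKO 2 also had the highest sum of 8 neocortex markers, 263.2 CPM against 159.6 to 210.3 CPM elsewhere, with 5 of the 8 at their highest. SAP97-cKO 1, the lowest in Grm8, did not follow this order, with a sum of 188.7 CPM. Control 3, the lowest in the neocortex sum (159.6 CPM), held 7.87 CPM of Grm8. The part of cortical tissue in the Grm8 value was not tested. Counting error alone would give a coefficient of variation of 5.56% for Grm8, against 51.9% among SAP97-cKO mice.

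**Figure D2:**
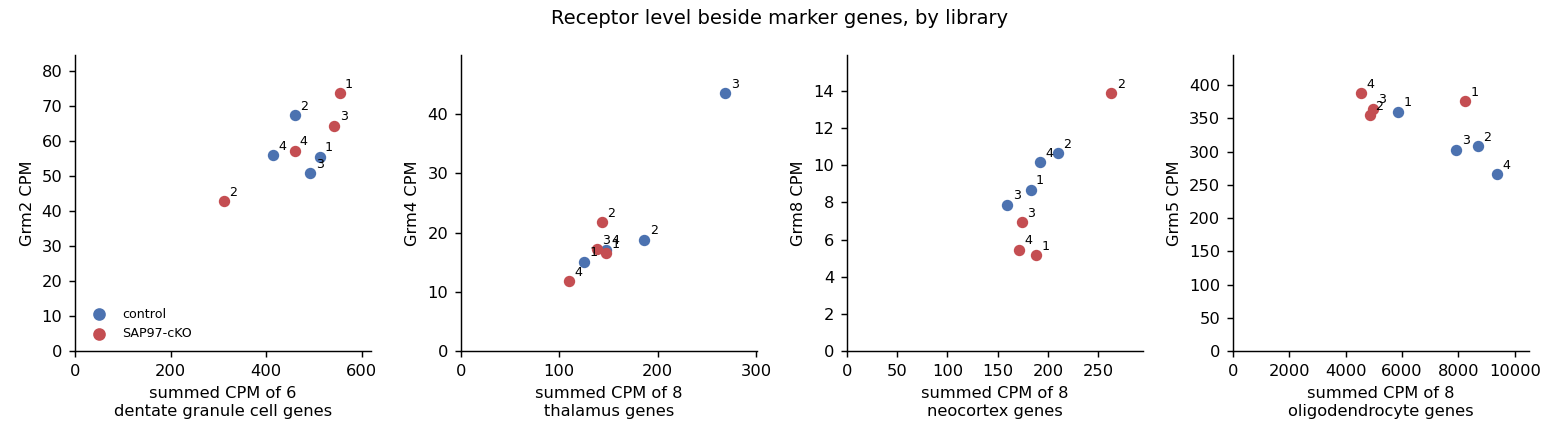
CPM of 4 receptors (y axes, from 0) against the summed CPM of a marker list (x axes, from 0), 1 point per library with its replicate number, control in blue and SAP97-cKO in red. Control 3 is at the upper right for Grm4 and thalamus genes, SAP97-cKO 2 for Grm8 and neocortex genes, and SAP97-cKO 2 is at the lower left for Grm2 and dentate granule cell genes; the pairs of gene and list were picked after their values were seen.

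**Figure D3:**
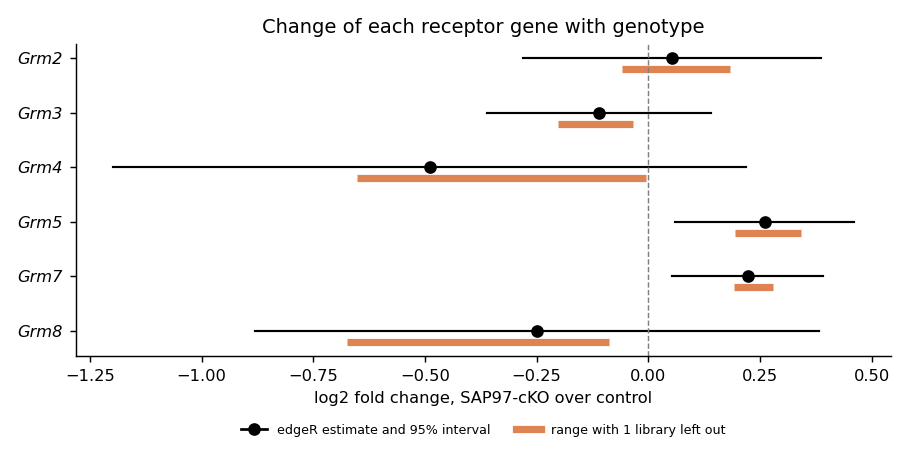
Log2 fold change of each receptor, SAP97-cKO over control, with its 95% interval from edgeR (black, n = 4 each), and the range of the estimate with 1 library left out (orange). The intervals of Grm5 and Grm7 lie above 0, those of the other receptors span it, and the Grm4 range reaches -0.0047.

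Levels of different genes can be compared only per length, so counts were divided by the union of annotated exons to give RPKM, CPM per kilobase of exon. Over the 8 libraries the order of level was Grm5 (33.2 ± 4.15 RPKM, SD, n = 8), Grm3 (15.8 ± 1.96), Grm2 (11.9 ± 1.99), Grm7 (8.93 ± 0.941), Grm4 (3.38 ± 1.64) and Grm8 (0.869 ± 0.294). Grm5, Grm7 and Grm4 were each above the next gene in 8 of 8 libraries with no overlap of the ranges. Grm3 was above Grm2 in 8 of 8 libraries although their ranges overlapped, and Grm2 was above Grm7 in 7 of 8. With the length of the longest transcript in place of the exon union, Grm7 (12.48 RPKM) and Grm2 (12.39 RPKM) changed places, so the order of that pair was not settled.

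The makeup of the family was expressed as each receptor's share of the summed counts per kilobase of the 6 genes, a measure that does not depend on library scaling. Grm5 made up 42.2% ± 4.01 in controls and 47.2% ± 2.32 in SAP97-cKO mice (SD, n = 4; exact permutation p = 0.114). Grm3 went the other way, from 23.1% ± 3.10 to 19.8% ± 2.44 (exact permutation p = 0.143). The remaining shares were 16.4% and 15.8% for Grm2, 11.5% and 12.6% for Grm7, 5.52% and 3.68% for Grm4, and 1.33% and 1.05% for Grm8. None of the 6 shares had an exact permutation p under 0.05, the Benjamini-Hochberg values over the 6 ran from 0.429 to 0.743, and the groups overlapped in every share.

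**Figure D4:**
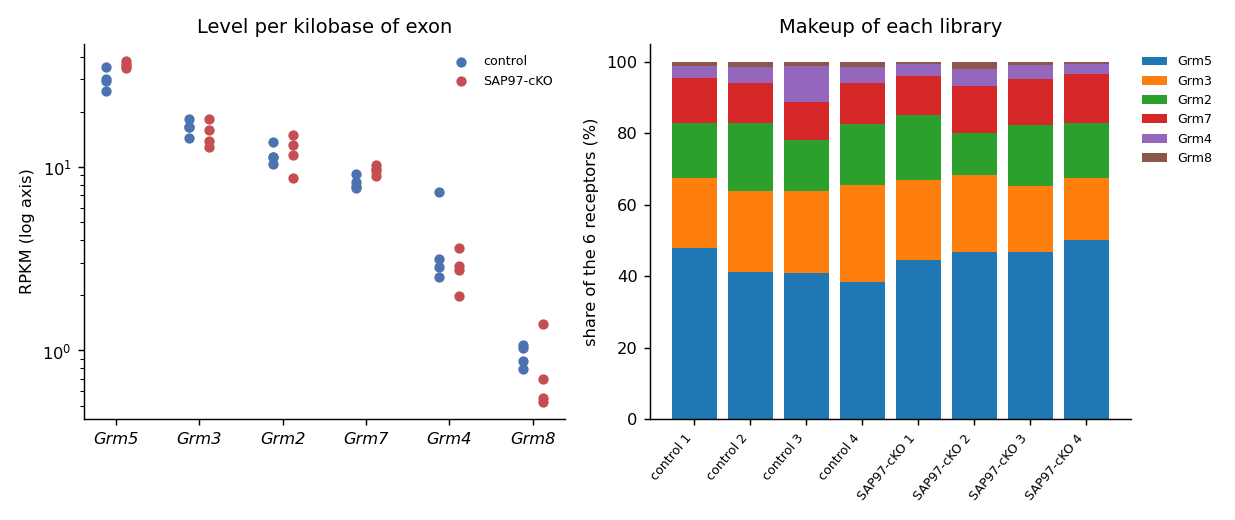
Left, RPKM of each receptor in each library on a log axis, control in blue and SAP97-cKO in red; right, the share of each receptor in the summed counts per kilobase of the 6 genes, 1 bar per library. Grm5 is highest in all 8 libraries with shares of 38.5% to 50.3%, and the Grm4 share is largest in control 3 (10.1%).

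Genes that carry the receptor signal were described from 6 lists, and none of their members passed the FDR in edgeR. In the Gq pathway of group I, 3 of 12 genes had an unadjusted p under 0.05, all higher in SAP97-cKO hippocampi, and 0 were lower, where 4.73% of all genes tested were higher and 7.01% lower at that p. Among them were Prkcb, a protein kinase C, with a log2 fold change of 0.25 (standard error 0.10, unadjusted p = 0.0329, adjusted p = 0.396 in edgeR), and Plcb1, a phospholipase C, with 0.23 (standard error 0.10, unadjusted p = 0.0486, adjusted p = 0.422). The median of the list was 0.16. Control 4, lowest in Grm5, was lowest for 9 of the 12 genes (2041 CPM in sum, against 2626 to 3188 elsewhere), and SAP97-cKO 4, highest in Grm5, was highest for 8.

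The Gi/o pathway of groups II and III had 13 genes and a median of 0.15. Of the 13, 1 was higher and 1 lower at an unadjusted p under 0.05, beside 4.73% and 7.01% of all genes tested. Adcy5, an adenylyl cyclase, was higher (log2 fold change 0.23, standard error 0.077, unadjusted p = 0.0143) and Gnai3, an inhibitory G protein alpha subunit, was lower (-0.17, 0.063, unadjusted p = 0.0232), with adjusted p of 0.353 and 0.375. The most abundant gene per length, the calcium-stimulated cyclase Adcy1 at 111 RPKM, had a log2 fold change of 0.083 (adjusted p = 0.873). The other 10 genes, among them the Girk channel genes Kcnj3, Kcnj6 and Kcnj9, had an unadjusted p above 0.05.

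Among 14 genes for proteins that bind or place these receptors, 5 were higher and 0 lower at an unadjusted p under 0.05, beside 4.73% and 7.01% of all genes tested, and the median was 0.18. Shank1, a postsynaptic scaffold tied to group I receptors through Homer, had 391, 345.6, 371.2 and 344.8 CPM in control libraries 1 to 4 and 489.4, 428.7, 417.6 and 503.5 CPM in SAP97-cKO libraries 1 to 4. These groups did not overlap (log2 fold change 0.34, standard error 0.083, unadjusted p = 0.00200, adjusted p = 0.316). Shank2, a scaffold of the same family, also did not overlap, with 173 ± 14.8 and 214 ± 11.7 CPM (SD, n = 4; log2 fold change 0.31, standard error 0.077, unadjusted p = 0.00228, adjusted p = 0.316 in edgeR). Grasp, which encodes the group I receptor trafficking protein tamalin, was the third gene with no overlap (0.32, standard error 0.084, unadjusted p = 0.00320, adjusted p = 0.316). These 3 of 14 genes compare with 2.78% of all genes that were higher without overlap. Shank3 and Elfn2 completed the 5. Control 4 was lowest for 8 of the 14 genes (3802 CPM in sum, against 4201 to 5520 elsewhere) and SAP97-cKO 4 was highest for 5, the libraries with the highest and the lowest oligodendrocyte sum, and their part in these differences was not tested. Homer1, Homer2 and Homer3 had log2 fold changes of 0.065, 0.17 and -0.14, and the most abundant gene per length, the receptor-binding neurochondrin gene Ncdn (802 RPKM), had 0.19 (adjusted p = 0.562).

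Of 8 genes that end receptor signalling, 0 had an unadjusted p under 0.05, beside 4.73% of all genes tested higher and 7.01% lower. The median was 0.084. Smallest in p were Arrb1, an arrestin (log2 fold change 0.11, unadjusted p = 0.0959), and Rgs14, a regulator of G protein signalling (0.17, unadjusted p = 0.0999). Rgs4 was the most abundant per length (58.6 RPKM) with 0.057. Of 8 genes of receptor-dependent long-term depression, all 8 had positive fold changes with a median of 0.16. At an unadjusted p under 0.05, where 4.73% of all genes tested were higher, 1 of the 8 was higher. It was Camk2a, the alpha subunit of CaMKII and the most abundant of the list (586 RPKM), with 0.28 (standard error 0.10, unadjusted p = 0.0230, adjusted p = 0.374). Next came Ptpn5, the striatal-enriched phosphatase (0.15, unadjusted p = 0.0810). Control 4 was again lowest, for 6 of the 8 genes (5102 CPM in sum, against 5435 to 7216 elsewhere), and SAP97-cKO 4 had the highest sum. The part of these libraries in the positive fold changes was not tested.

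Glutamate uptake and packaging was covered by 7 genes with a median of 0.016. Of the 7, 1 was higher and 1 lower at an unadjusted p under 0.05, beside 4.73% and 7.01% of all genes tested. Slc17a7, the vesicular transporter VGLUT1 of excitatory terminals, was higher (log2 fold change 0.24, standard error 0.090, unadjusted p = 0.0237, adjusted p = 0.376). Slc7a11, the cystine-glutamate exchanger that feeds extrasynaptic glutamate to group II receptors, was lower (-0.24, standard error 0.10, unadjusted p = 0.0424, adjusted p = 0.413). Glul, the glutamine synthetase of astrocytes and the most abundant of the list (508 RPKM), had -0.14 (adjusted p = 0.580).

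**Figure D5:**
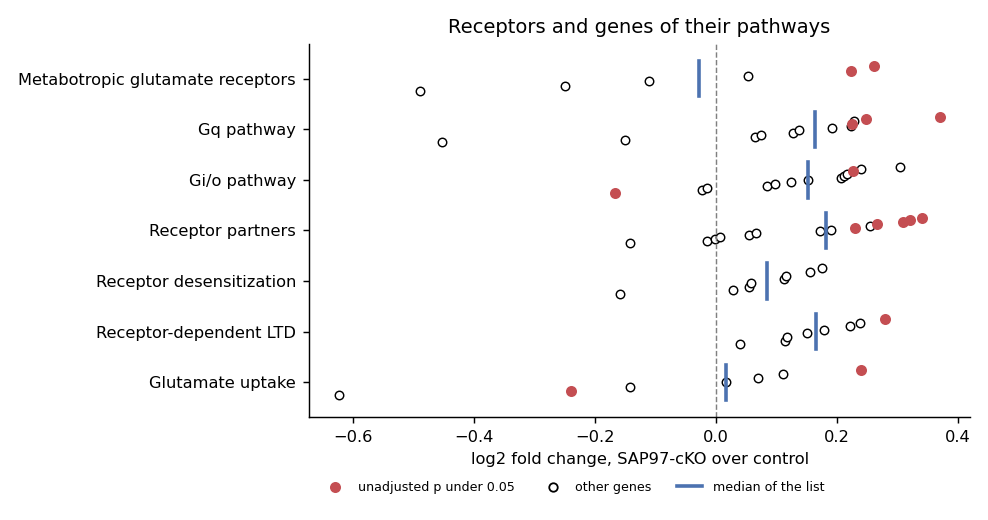
Log2 fold change, SAP97-cKO over control, of the 6 receptors and of the genes of 6 related lists, 1 point per gene, filled where the unadjusted edgeR p is under 0.05, with a blue line at each list's median. Medians run from -0.029 for the receptors to 0.18 for receptor partners, beside -0.012 over all genes tested, and no gene shown passes the FDR of 0.25.

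As a description of which genes followed each receptor over the 8 libraries, the 2 genes with the highest Pearson r of log2 CPM were listed for each. All libraries enter each r, so differences between them in genotype and dissection enter it too, while depth was nearly equal. Each gene was picked as highest among the 16251 genes tested, so with 8 libraries its r is high by selection and no test goes with it. Grm5 went most closely with Fbxo41 (r = 0.991, Spearman rho = 0.952, n = 8) and Ppp1r12b (r = 0.987, rho = 0.929). Grm7 went with C2cd2l (r = 0.991, rho = 1.0) and with Slc17a7 of the uptake list (r = 0.987, rho = 1.0). For Grm2 the nearest genes were Gm20646 (r = 0.964, rho = 0.976) and Tmem144 (r = 0.963, rho = 0.905), and for Grm3 they were Tgfbr1, a TGF-beta receptor (r = 0.977, rho = 0.952), and Zfp748 (r = 0.958, rho = 0.952). Grm4 was closest to Uncx (r = 0.986, rho = 0.929) and Gm38227 (r = 0.985, rho = 0.976), genes with means of only 0.773 and 0.339 CPM, and Grm8 to Coch (r = 0.985, rho = 1.0) and Fgfr1op (r = 0.971, rho = 0.905).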

How the data were processed

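RNA of 8 hippocampi was sequenced. Per the methods and the submitters' processing notes, the authors used STAR 2.5.3a for alignment (mm10, GRCm38.p5), and with PORT removed ribosomal and mitochondrial reads, resampled libraries to a common depth and counted reads per Ensembl gene. The deposited values are whole-number counts. The authors also deposited log2 fold changes and p-values with q-values of their own comparison, which were not used.

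Genes were kept with filterByExpr by genotype (minimum count 10, total 15), which removed 9583. Libraries were scaled by TMM (factors 0.964 to 1.03) and tested in R 4.3.3 by edgeR 4.0.16 (quasi-likelihood F test), p-values being adjusted by Benjamini-Hochberg across every gene in the fit; the procedure was checked on simulated data. Single values were compared by exact two-sided permutation over the 70 assignments of mice to groups. Libraries of a group were distinct beyond sampling noise, with 9.72 to 69.2 as the chi-square per gene. Of the gene IDs, 25696 were matched to GENCODE M21, the source of positions, lengths and coding sequences, which were aligned with Biopython 1.88. Nearest genes used log2(CPM + 0.5).

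The members, the lists and the rule for named genes were chosen with earlier results of these data known. Beside the receptors and Dlg1, the rule names, of each pathway list, the 2 genes with the smallest unadjusted p and the most abundant per kilobase, and for each receptor the 2 nearest genes; other named genes were singled out after their values were seen, and 1 gene that the rule names is not reported here. Alternatives were limma-voom (limma 3.58.1), DESeq2 1.42.0, other scalings, filters and lengths, an FDR of 0.05, the replicate number as a block, and leaving out each library.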

Additional observations from a re-analysis of the deposited data

Results flagged for a closer look

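In groups of 4 libraries, 1 library stood apart from the rest by Dixon's test in 8 of the 64 groups examined. Chance alone gives about 1 in 20 where groups are independent. The groups examined share libraries and counts, so these values cannot tell whether 8 of 64 is an excess. Among the receptors, control 3 stood apart for Grm4, both as 43.5 CPM and as 10.1% of the receptor sum. Among the lists, control 4 was apart with a low sum of the Gi/o pathway genes (2788 CPM) and of the CA3 genes (295.4 CPM) and a high sum of the microglia genes (416.5 CPM). SAP97-cKO 1 was apart with high sums of the oligodendrocyte genes (8221 CPM) and of the oligodendrocyte precursor genes (411.8 CPM), and control 2 with a high sum of the meningeal fibroblast genes (721.9 CPM).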

How the results depend on the processing

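Grm3, Grm4 and Grm8 kept their sign and stayed short of the FDR under every alternative tried. DESeq2 called 2 receptors, with log2 fold changes of 0.27 for Grm5 and 0.23 for Grm7. With single libraries left out, the called receptors numbered 0 to 2, and the log2 fold change ran from -0.059 to 0.18 for Grm2 (negative without SAP97-cKO 1, -0.059), from 0.20 to 0.34 for Grm5 and from 0.19 to 0.28 for Grm7. The difference in the Grm2 share ran from -1.51 to 0.650 percentage points and was positive without control 2 (0.169) and without SAP97-cKO 2 (0.650). By the longest transcript, 4 of the 6 receptors kept their rank. The count of all genes past the threshold, 48 in edgeR, was 0 at an FDR of 0.05 (1907 at an unadjusted p under 0.05), 95 without TMM factors, 104 without a filter and 1033 with DESeq2. It ran from 0 to 1675 with single libraries left out, with 1675 without control 1, 711 without SAP97-cKO 1, and 0 without control 2, SAP97-cKO 3 or SAP97-cKO 4, where edgeR left 1403, 1259 and 1167 genes at an unadjusted p under 0.05. The cause of these shifts was not tested.

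In the fit with a replicate block, edgeR called 256 genes and 0 receptors (2 at an unadjusted p under 0.05), with log2 fold changes of 0.27 for Grm5 (adjusted p = 0.407) and 0.22 for Grm7 (adjusted p = 0.433). The deviations of same-numbered libraries correlated at -0.084, 0.215, 0.085 and 0.262, and those of differently numbered pairs at -0.436 to 0.32. Not every library correlated best with its own number. The labels state no pairing, and these few values cannot decide whether same-numbered libraries share more than a number. Among the receptors, Grm8 had the fewest reads (2584 in all) and the largest counting error. That error, a coefficient of variation of 5.56%, was below its spread among controls (13.8%) and among SAP97-cKO mice (51.9%).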

Other observations

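Some genes of the signalling lists had their extreme value in the same library as a receptor; they were picked after their values were seen. Plcb4, a phospholipase C, was highest in control 3 with 58.6 CPM, the library highest in Grm4, and held 20.2 to 35.7 CPM in the other libraries. Rgs8, a regulator of G protein signalling, was also highest there (229.1 CPM, against 114.9 to 167.2 CPM elsewhere). Adcy1 was highest in SAP97-cKO 1 (1977 CPM) and lowest in SAP97-cKO 2 (998 CPM), as Grm2 was. Rgs4 and Rgs2 were highest in SAP97-cKO 2, the library highest in Grm8, at 235 and 56.8 CPM.

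Of 6 CA1 pyramidal cell markers, 5 had positive fold changes, with a median of 0.27. At an unadjusted p under 0.05, 1 of the 6 was higher, beside 4.73% of all genes tested. It was Wfs1 (log2 fold change 0.34, standard error 0.11, unadjusted p = 0.00998, adjusted p = 0.347 in edgeR). The 8 thalamus markers all had negative fold changes with a median of -0.52, and 1 had an unadjusted p under 0.05, where 7.01% of all genes were lower. Control 3 was highest for 6 of the 8 (269 CPM in sum, against 109.7 to 186.6 elsewhere). The part of this library in the thalamus fold changes was not tested.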
